A study of Mus musculus with 4 samples.

Results

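The interleukin-1 (IL-1) family was followed through single cells of mouse ascites and omental tumors grown from the KPCA cancer cell lines. The set comprised 9 genes taken by symbol from the count matrices, namely the ligands Il1a, Il1b, Il18 and Il33, the receptor antagonist Il1rn, the receptors Il1r1, Il1r2 and Il1rl1, and the sensor Nlrp3. All 9 were found in each of the 4 libraries, among 30406 gene IDs that the libraries had in common. IL-1α and IL-1β signal through the receptor encoded by Il1r1; the antagonist encoded by Il1rn occupies that receptor without signalling, and the receptor encoded by Il1r2 is a decoy that binds the ligand and transmits nothing. NLRP3 assembles an inflammasome in which caspase-1 cuts the inactive forms of IL-1β and IL-18, so a transcript count is not a measure of active cytokine. IL-33 is a nuclear alarmin of stromal and epithelial cells that is released on damage and acts on mast cells, innate lymphoid cells and regulatory T cells through ST2, the product of Il1rl1; fat depots such as the omentum are known for their IL-33-producing stromal cells.

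The groups were 1 ascites library from 9-week-old C57BL6J mice and 1 library each of KPCA.A, KPCA.C and KPCA.B omental tumors from 8-week-old C57BL6J mice. Each tumor library pooled 4 tumors. The labels name the cell type of all groups as fallopian tube epithelial cells, do not spell out the alleles behind the name KPCA, and name no line for the ascites library. With 1 library per group there was no replicate check of any difference between groups: no test was run, intervals are exact 95% intervals that cover counting error only, and line, library and pool cannot be told apart. Ascites also differed from the tumors in mouse age, sequencing depth and the version of the counting software. In ratios of ascites to tumors these cannot be told apart from sample type.

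The genes lie in a few places of the genome (build GRCm38). Il1r2 (ENSMUSG00000026073, chr1:40074079-40125231), Il1r1 (ENSMUSG00000026072, chr1:40225080-40317257) and Il1rl1 (ENSMUSG00000026069, chr1:40429570-40465415) follow each other on the forward strand. Il1a (ENSMUSG00000027399, chr2:129299610-129309972) and Il1b (ENSMUSG00000027398, chr2:129364570-129371139) lie on the reverse strand of the same chromosome that carries Il1rn (ENSMUSG00000026981, chr2:24336853-24351494) on its forward strand. Il18 (ENSMUSG00000039217) is at chr9:50554827-50581840, Il33 (ENSMUSG00000024810) at chr19:29925114-29960718 and Nlrp3 (ENSMUSG00000032691) at chr11:59541568-59566956, each on the forward strand.

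The results below turn on Il1b, Il33 and Il1rl1, whose upstream sequences are shown because the 3 genes were read in different cell types and because Il33 and Il1rl1 each have several transcription starts. RefSeq promoters of build GRCm38.p6 matched 9 of 9 members, with 15 starts. The 250 bases before the start are given 5′ to 3′ on the strand of the gene; capitals mark matches to TATAAA, to the C/EBP-type motif TTGCNNAA or to the GATA-type motif AGATAA, which is printed as TTATCT where it lies on the opposite strand.
Il1b (chr2:129371140-129371389, reverse strand): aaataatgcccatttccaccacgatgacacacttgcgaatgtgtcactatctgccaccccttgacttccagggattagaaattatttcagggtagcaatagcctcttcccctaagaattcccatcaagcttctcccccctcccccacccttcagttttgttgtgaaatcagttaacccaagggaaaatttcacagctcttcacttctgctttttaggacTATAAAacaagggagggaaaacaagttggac
Il33, upstream start (chr19:29924863-29925112, forward strand): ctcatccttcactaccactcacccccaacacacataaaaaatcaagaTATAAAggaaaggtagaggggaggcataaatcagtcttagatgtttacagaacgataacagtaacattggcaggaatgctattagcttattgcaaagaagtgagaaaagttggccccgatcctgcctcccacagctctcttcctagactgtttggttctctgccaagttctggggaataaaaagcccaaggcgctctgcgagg
Il33, downstream start (chr19:29945540-29945789, forward strand): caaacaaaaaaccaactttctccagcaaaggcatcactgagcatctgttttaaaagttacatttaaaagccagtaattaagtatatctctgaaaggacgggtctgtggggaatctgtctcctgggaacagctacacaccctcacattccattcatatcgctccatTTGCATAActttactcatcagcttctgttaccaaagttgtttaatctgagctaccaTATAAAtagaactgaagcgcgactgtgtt
Il1rl1, upstream start (chr1:40429320-40429569, forward strand): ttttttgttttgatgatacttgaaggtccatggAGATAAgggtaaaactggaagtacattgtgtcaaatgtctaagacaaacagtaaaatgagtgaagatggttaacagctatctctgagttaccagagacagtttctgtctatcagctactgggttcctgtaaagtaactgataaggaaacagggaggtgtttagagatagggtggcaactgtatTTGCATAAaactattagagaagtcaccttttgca
Il1rl1, downstream start (chr1:40439379-40439628, forward strand): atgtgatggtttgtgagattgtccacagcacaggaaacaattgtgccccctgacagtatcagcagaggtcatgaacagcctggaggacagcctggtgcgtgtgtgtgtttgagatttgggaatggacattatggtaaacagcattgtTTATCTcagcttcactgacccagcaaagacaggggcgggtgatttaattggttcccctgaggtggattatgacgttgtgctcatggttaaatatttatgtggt
The motifs were searched on both strands, and no matches overlapped in these 5 windows. TATAAA stood 31 bases before the Il1b start and 29 bases before the downstream Il33 start, and 12.4% of 32851 mouse promoters of the same length hold it. AGATAA was present upstream of both Il1rl1 starts and in 9.99% of all promoters, and TTGCNNAA in 9.56%. No match to a kappaB-type motif (in 45.8% of all promoters), to the PU.1 core GAGGAA (in 23.3%) or to the AP-1 motif TGANTCA (in 6.75%) lay in these windows, which says only that those letters are not there. In mice the upstream Il1rl1 start is known for the membrane-bound receptor of mast cells and other blood cells, and the downstream start for a soluble form made by fibroblasts; reads from transcript 3′ ends, as here, do not separate starts.

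The libraries held 3118, 5703, 4110 and 3358 barcodes for ascites, KPCA.A, KPCA.C and KPCA.B, against 5000 cells stated in the labels, and 2921, 2648, 3098 and 2586 cells were used. Median depth was 2077 unique molecular identifiers (UMIs, which count molecules) per ascites cell and 7910 to 14660 per tumor cell. Over 15% mitochondrial UMIs were found in 5.42% of ascites barcodes and in 53.1%, 24.3% and 22.5% of KPCA.A, KPCA.C and KPCA.B barcodes. Ascites shared 0 to 1 barcodes with each tumor library, and pairs of tumor libraries shared 5 to 19. Whether ascites was made with another kit version was not tested. Clustering, from which the 9 genes were left out, gave 28 clusters with 100 sub-clusters, and 13 classes were named from marker genes; 717 cells of 6 sub-clusters stayed unnamed. Tumor epithelial-like cells carried Krt8 at 2413, 1365 and 1032 CPM (a gene's UMIs per 1000000 UMIs of the class or library) in KPCA.A, KPCA.C and KPCA.B, together with Cdkn2a at 596, 471 and 637 CPM; the class held 793, 1208 and 395 cells, so the labelled cell type was a part of each tumor library, and ascites held 5 such cells. Of 2921 ascites cells 2330 were macrophage-like, and the sub-clusters of these cells held 0 to 1 tumor-library cells each, so that an ascites cluster may reflect the library as well as a cell state.

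Across whole libraries, Il33 was the member with the widest range among tumors and Il1r2 the one that stood highest in ascites. Il33 measured 5.42, 153, 449.9 and 39.9 CPM in ascites, KPCA.A, KPCA.C and KPCA.B, and Il1b 53.5, 154, 104 and 37.2 CPM. Il1r2 measured 244 CPM in ascites, against 21.9, 13.1 and 6.98 CPM in KPCA.A, KPCA.C and KPCA.B tumors. Il18 measured 38.2 CPM in ascites, against 4.93 to 5.92 CPM in the tumors. Il1rn, Il1r1, Il1rl1, Il1a and Nlrp3 lay between 0.278 and 61.0 CPM. These whole-library values mix the level per cell with the share of each cell type, and fewer cells of a type and less RNA per cell cannot be told apart in them; the values below are therefore given per class.

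**Figure D1:**
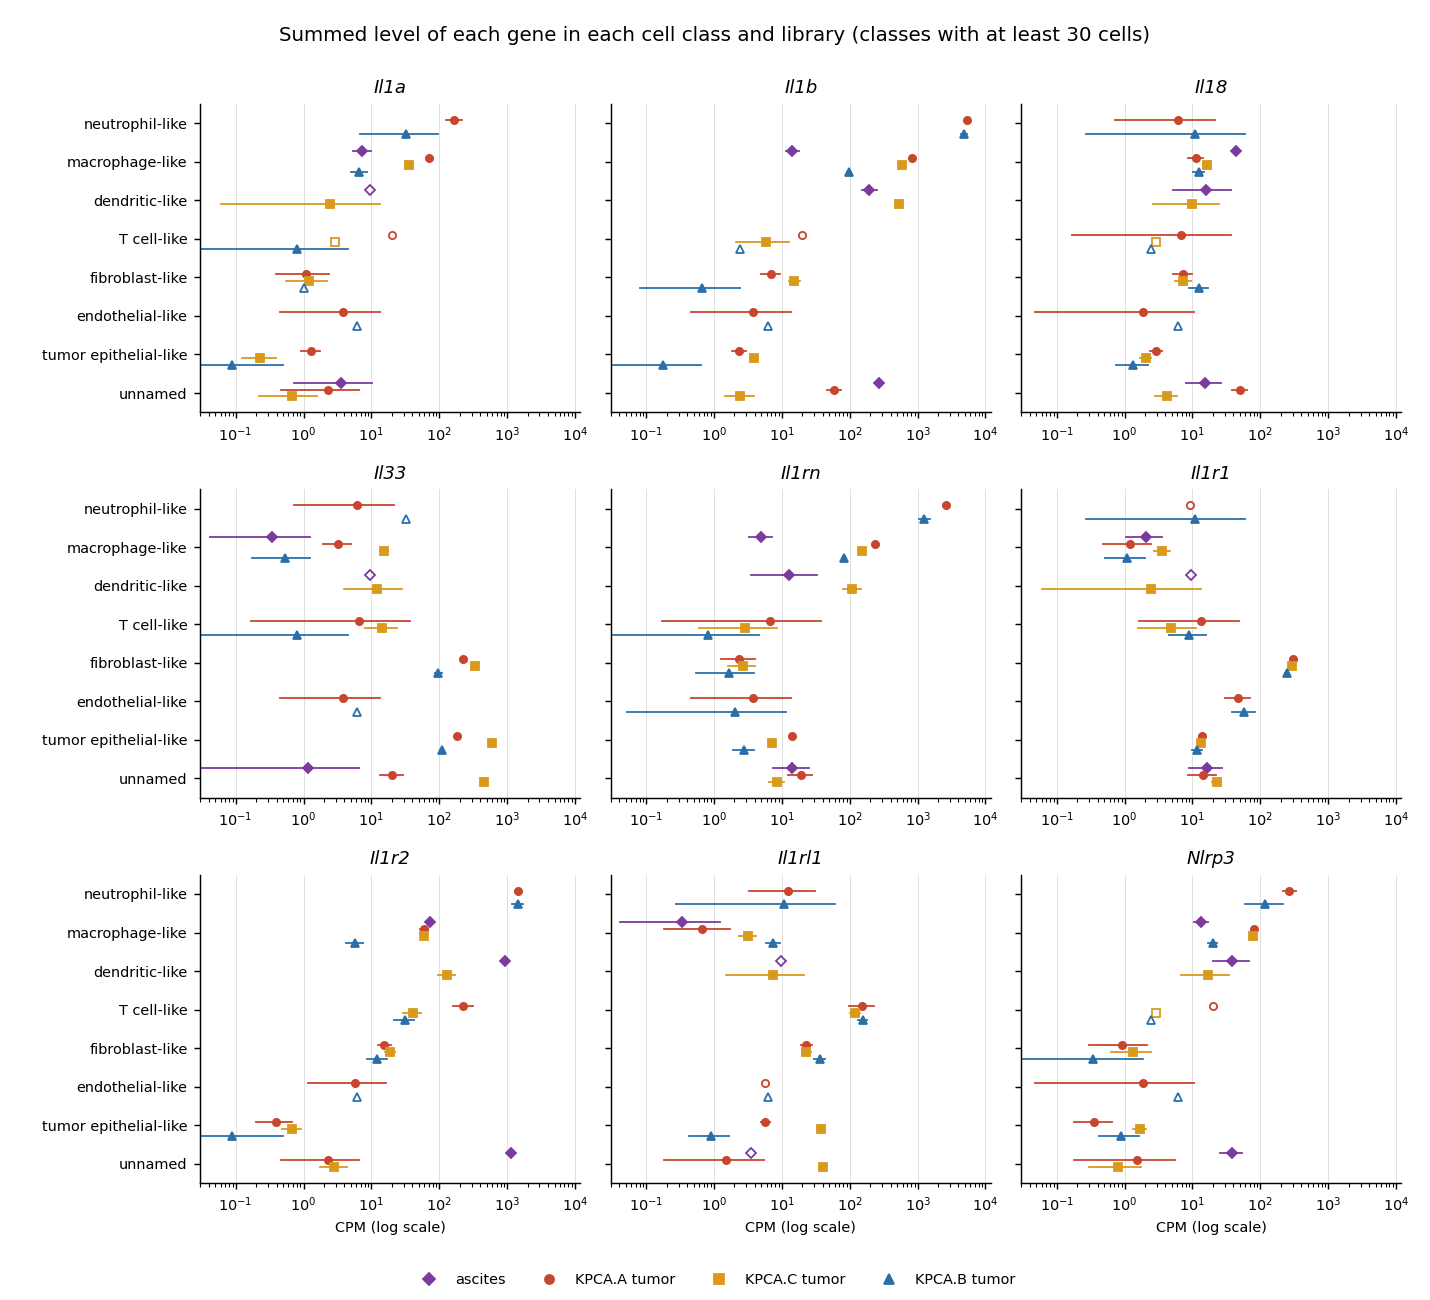
Level of each of the 9 genes by cell class, in CPM on a log axis, for ascites, KPCA.A, KPCA.C and KPCA.B (classes with at least 30 cells). Points are summed counts of a class in 1 library, lines are 95% counting intervals, and open markers stand at the limit that a count of 0 allows; Il1b and Il1rn peak in neutrophil-like cells, Il1r1 in fibroblast-like cells, and Il33 in tumor epithelial-like and fibroblast-like cells.

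Il1b, the secreted IL-1 ligand of activated myeloid cells, was read mainly in myeloid classes. Neutrophil-like cells carried 5418 CPM (5170 to 5675) in KPCA.A, 4856 CPM in 11 KPCA.C cells and 4827 CPM (4390 to 5296) in KPCA.B, so the tumors lay close together, with an A-to-B ratio of 1.12 (1.01 to 1.25). The 17 neutrophil-like cells of the ascites, led by the granule genes Ngp, Ltf and Camp, held 8 Il1b UMIs, or 653 CPM (282 to 1287). Il1b was therefore lower in those cells than in neutrophil-like cells of any tumor, at a median of 681 UMIs per cell.

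In macrophage-like cells Il1b was far apart between libraries. It stood at 14.3 CPM (11.4 to 17.7) in ascites, 817 CPM (795 to 841) in KPCA.A, 595 CPM (583 to 608) in KPCA.C and 96.7 CPM (90.5 to 103) in KPCA.B. No 2 of these intervals overlapped. KPCA.A was 8.45-fold (7.87 to 9.08) and KPCA.C 6.15-fold (5.74 to 6.59) above KPCA.B, KPCA.A was 1.37-fold (1.33 to 1.42) above KPCA.C, and the ratio of ascites to KPCA.B was 0.148 (0.117 to 0.185). That last ratio was 0.487 when the unnamed cells of the same parent cluster were counted with the macrophage-like cells. After each cell was thinned to 1000 UMIs, the A-to-B and C-to-B ratios were 5.56 and 4.61.

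The share of macrophage-like cells with at least 1 Il1b UMI was 3.05%, 60.6%, 58.0% and 24.05% in ascites, KPCA.A, KPCA.C and KPCA.B, at median depths of 2163, 5802, 10653 and 12150 UMIs. After thinning it was 1.38%, 36.9%, 29.9% and 8.20%. Thinned T cell-like cells, which should lack the gene, gave 0%, 0.592% and 0% in the 3 tumors (median depths before thinning 3030, 5074 and 3958 UMIs), well below the macrophage-like share of the same tumor.

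Immediate-early and heat-shock genes, which dissociation at warm temperature is known to raise, differed between the same macrophage-like cells. Fos stood at 239, 631, 650.1 and 108 CPM in ascites, KPCA.A, KPCA.C and KPCA.B, Egr1 at 16.5, 522, 278 and 129 CPM, and Hspa1a at 3.24, 68.2, 45.3 and 11.4 CPM. Each was lower in ascites and in KPCA.B, relative to both other tumors. Their part in the Il1b difference was not tested.

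The difference between lines was present within single macrophage-like clusters and also went with the make-up of the class. In the cluster led by Cxcl9, Ccr2 and H2-Aa (cluster 9), Il1b stood at 994, 777 and 274 CPM in KPCA.A, KPCA.C and KPCA.B, an A-to-B ratio of 3.63 (3.24 to 4.06). In the cluster led by Retnla, Ccl8 and Lyve1 (cluster 12), which resembles tissue-resident macrophages in those genes, it stood at 84.1, 75.2 and 26.7 CPM, an A-to-B ratio of 3.15 (1.99 to 4.82). In the monocyte-type cluster with Ccr2 and Ly6c2 (cluster 16, which includes some dendritic-like cells) the values were 557, 623 and 147 CPM. KPCA.B was lowest in each of these 3 clusters, with smaller ratios than over the whole class. In cluster 24, of 29, 13 and 37 cells, the values were 837, 568 and 107 CPM, close to those of the whole class, and in cluster 11 they were 541, 232 and 115 CPM.

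The make-up of the class differed as well. The Arg1 and Ccl24 cluster (cluster 1), at 873 CPM Il1b in KPCA.A and 751 CPM in KPCA.C, made up 35.2% of macrophage-like cells in KPCA.A and 57.4% in KPCA.C, against 2.59% in KPCA.B. Cluster 12, low in Il1b in all 3 tumors, made up 5.26%, 3.09% and 39.4% of them. A cluster with the large peritoneal macrophage genes Cd5l, Alox15 and Prg4 (cluster 18) carried 16.5 CPM in KPCA.C and 6.59 CPM in KPCA.B, less Il1b than any other macrophage-like cluster of those tumors, and made up 2.40%, 8.07% and 15.5% of macrophage-like cells in KPCA.A, KPCA.C and KPCA.B. In KPCA.A, clusters 1 and 9 held 41.1% and 40.5% of the macrophage-like Il1b UMIs; in KPCA.B, cluster 9 held 40.9% and cluster 16 held 20.02%.

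**Figure D2:**
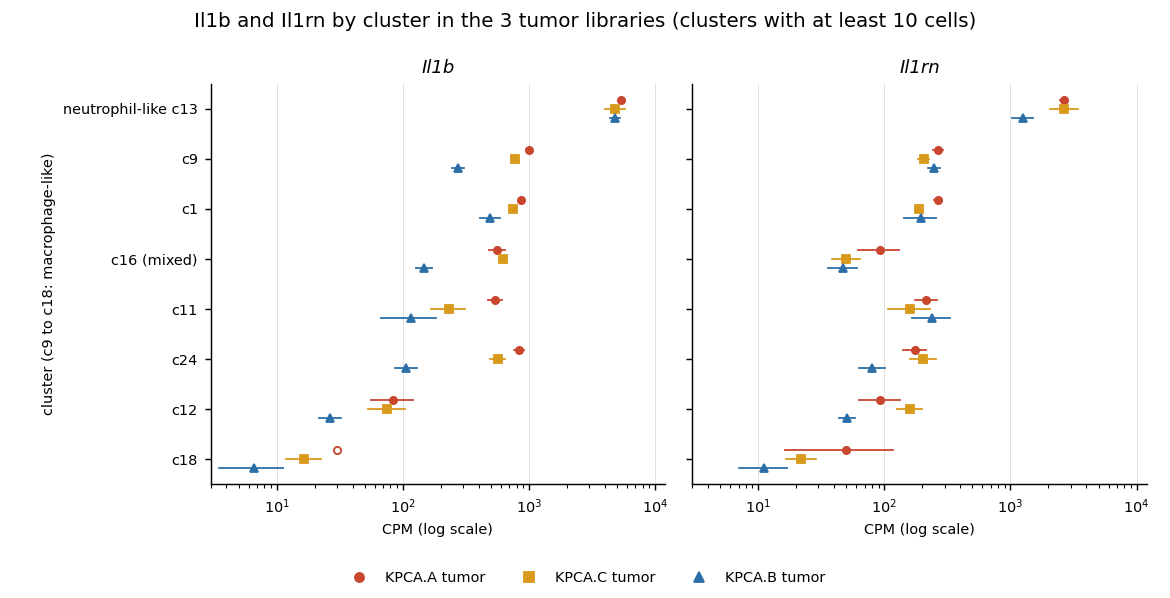
Il1b and Il1rn, in CPM on a log axis, in neutrophil-like cells and in each macrophage-like cluster of the tumors for KPCA.A, KPCA.C and KPCA.B (at least 10 cells), with 95% counting intervals. In clusters 9, 16 and 12 KPCA.B had the lowest Il1b of the lines, whereas Il1rn in cluster 9 was 268, 206 and 249 CPM in KPCA.A, KPCA.C and KPCA.B.

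The cells that held most of a library's Il1b were not the same in each. In ascites 60.3% of Il1b UMIs (55.2 to 65.2) came from the unnamed cells, which were 14.7% of cells, 21.8% came from macrophage-like and 15.8% from dendritic-like cells. In KPCA.A 69.5% came from macrophage-like and 25.7% from neutrophil-like cells, and in KPCA.C 92.5% from macrophage-like cells. In KPCA.B 63.9% came from macrophage-like cells and 31.6% (29.2 to 34.1) from neutrophil-like cells, which were 1.70% of the cells. Dendritic-like cells carried 195 CPM (149 to 250) in ascites and 534 CPM in KPCA.C, and 643 and 72.9 CPM in the 25 and 24 cells of KPCA.A and KPCA.B. Acinar-like cells of KPCA.A, which carry pancreatic enzyme genes, had 137 CPM, against 0 CPM in the 32 acinar-like cells of KPCA.B. Of these 154 KPCA.A cells, 129 lay in the low-UMI cluster 5, and the median depth was 895.5 UMIs. They also carried the myeloid transcript Il1rn, at 62.4 CPM. Whether these UMIs are background from myeloid cells was not tested.

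Within ascites, Il1b was uneven. A sub-cluster led by Pf4, S100a8, Cxcl3 and Ppbp (sub-cluster 4.0, 421 cells), which had monocyte markers together with neutrophil markers and was left unnamed, held all 232 Il1b UMIs of the unnamed ascites cells at 276 CPM. The large clusters with Saa3, Prg4 and Alox15, genes of large peritoneal macrophages, held 22.4 CPM (cluster 0) and 11.6 CPM (cluster 3). The dendritic-like sub-cluster with Ccl17 and H2-Aa held 142 CPM, and a small dendritic-like sub-cluster of 11 cells held 841 CPM (514 to 1299; 20 UMIs). Platelet genes such as Pf4 and Ppbp led the sub-cluster with most Il1b UMIs; whether platelets adhered to these cells was not tested.

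**Figure D3:**
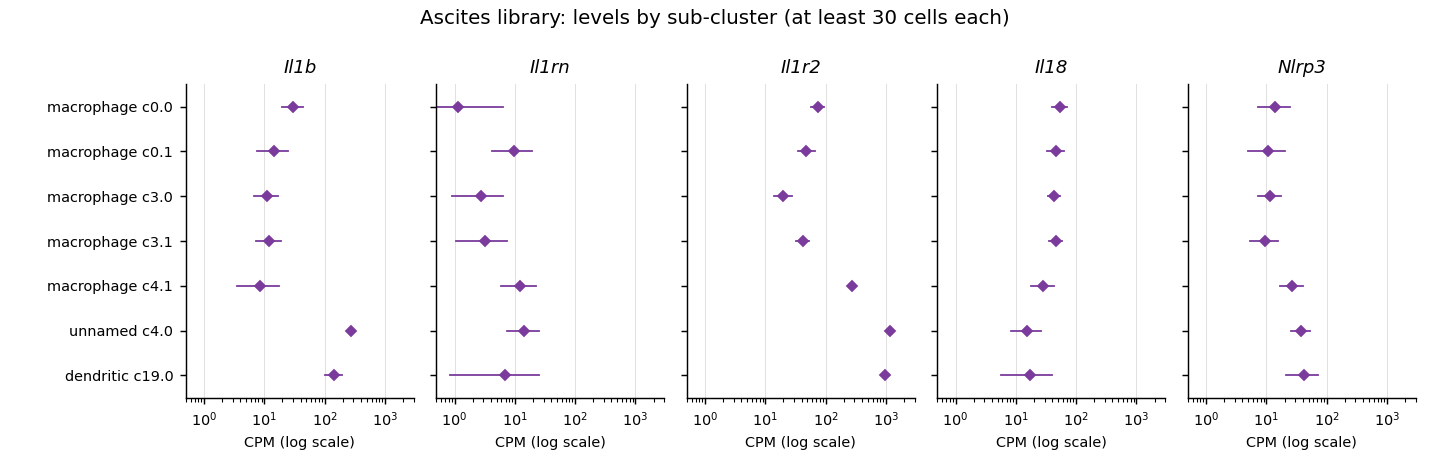
Il1b, Il1rn, Il1r2, Il18 and Nlrp3 in CPM (log axis) in the ascites sub-clusters with at least 30 cells, with 95% counting intervals. Among the sub-clusters plotted, Il1b and Il1r2 were highest in sub-cluster 4.0 and the dendritic-like one, at 276 and 142 CPM and at 1171 and 979 CPM, and Il18 in the macrophage-like sub-clusters of clusters 0 and 3, between 43.3 and 53.4 CPM; the 17 neutrophil-like cells and a dendritic-like sub-cluster of 11 cells are not plotted.

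Il1a, the IL-1 ligand that is active without cutting and often stays at the cell membrane, followed the same classes at lower levels. Macrophage-like cells carried 7.32 CPM (5.30 to 9.86) in ascites, 69.9 CPM (63.3 to 76.9) in KPCA.A, 35.4 CPM (32.4 to 38.6) in KPCA.C and 6.63 CPM (5.09 to 8.505) in KPCA.B. The ascites and KPCA.B values had overlapping intervals, and KPCA.A was above KPCA.C by 1.97-fold (1.73 to 2.25) and above KPCA.B by 10.5-fold (8.05 to 14.0). Thinned to 1000 UMIs per cell, the A-to-B ratio was 42.01. That value has no interval and rests on few KPCA.B UMIs, so its size is uncertain. Neutrophil-like cells carried 166 CPM (125 to 216) in KPCA.A and 32.4 CPM (6.68 to 94.7; 3 UMIs) in KPCA.B. In 17 ascites and 11 KPCA.C neutrophil-like cells no Il1a UMI was seen, which allows up to 245 and 127 CPM. Macrophage-like cells held 93.5%, 79.0%, 94.9% and 92.5% of the Il1a UMIs in ascites, KPCA.A, KPCA.C and KPCA.B, and neutrophil-like cells 10.5% in KPCA.A.

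Il1rn, which encodes the secreted blocker of the IL-1 receptor, was read in the same myeloid classes as Il1b. It was also read at low levels in tumor cells, most clearly in KPCA.A. Neutrophil-like cells carried 2635 CPM (2463 to 2816) in KPCA.A, 2660.1 CPM in KPCA.C and 1253 CPM (1035 to 1502) in KPCA.B, and a single UMI in ascites. Macrophage-like cells carried 4.94 CPM (3.31 to 7.09) in ascites, 235 CPM (223 to 248) in KPCA.A, 152 CPM (146 to 159) in KPCA.C and 82.3 CPM (76.6 to 88.3) in KPCA.B. Ascites was the lowest and KPCA.A the highest, as for Il1b, but the span among tumors was narrower, with an A-to-B ratio of 2.86 (2.61 to 3.12). In cluster 9 the A-to-B ratio was 1.08 (0.936 to 1.24).

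The balance of ligand to antagonist differed between tumors accordingly. Macrophage-like cells held 2.90 Il1b UMIs per Il1rn UMI (1.88 to 4.58) in ascites, 3.48 (3.28 to 3.70) in KPCA.A, 3.91 (3.73 to 4.098) in KPCA.C and 1.18 (1.07 to 1.30) in KPCA.B. KPCA.B thus had the lowest ratio in macrophage-like cells, and in neutrophil-like cells the highest of the tumors: 3.85 (3.13 to 4.77), compared with 2.06 for KPCA.A (1.90 to 2.23) and 1.83 for KPCA.C (1.33 to 2.52). Cells with UMIs of both genes made up 0.0429%, 36.9%, 34.0% and 13.1% of macrophage-like cells in ascites, KPCA.A, KPCA.C and KPCA.B, and cells with Il1rn alone 1.12%, 14.6%, 14.5% and 22.1%. These ratios compare 3′-end counts, which do not scale with transcript length, but capture may differ between the genes.

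Neutrophil-like sub-clusters of KPCA.A split by this ratio. The sub-cluster with the interferon gene Rsad2 and with Cxcl10 (sub-cluster 13.1) had 7898 CPM Il1b and 1393 CPM Il1rn, whereas the one with Hcar2, Ccl3 and Ccl4 (sub-cluster 13.2) had 2864 CPM Il1b and 4338 CPM Il1rn. The largest, with Cxcl2 and Mmp9, lay between them at 5536 and 2463 CPM.

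Tumor epithelial-like cells carried Il1rn at 13.9 CPM (12.6 to 15.3) in KPCA.A, 7.23 CPM in KPCA.C and 2.75 CPM in KPCA.B, and these cells held 15.4%, 14.5% and 3.28% of the Il1rn UMIs. Relative to fibroblast-like cells, they held 5.90 times as much in KPCA.A (3.41 to 11.2) and 2.74 times in KPCA.C (1.75 to 4.53). In KPCA.B that ratio was 1.63 (0.630 to 5.38), so the KPCA.B level did not stand apart. Whether it is background was not tested. In tumor epithelial-like cells the A-to-B ratio was 5.04 (3.50 to 7.51) at full depth and 0.839 after thinning to 1000 UMIs per cell. The thinned value has no interval and rests on few UMIs, so it does not settle the direction at equal depth. In the Epcam-high tumor cluster (cluster 17) Il1rn stood at 24.3 CPM in KPCA.A and 2.76 CPM in KPCA.B.

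Il18, an inflammasome-processed ligand that drives interferon production by lymphocytes, was the ligand with its highest macrophage-like level in ascites. It stood at 43.8 CPM (38.6 to 49.5) in ascites, against 11.1 CPM (8.62 to 14.2) in KPCA.A, 16.2 CPM (14.2 to 18.4) in KPCA.C and 12.3 CPM (10.2 to 14.8) in KPCA.B. The ascites interval lay above that of every tumor, with ratios of 3.93 (2.99 to 5.23), 2.70 (2.25 to 3.24) and 3.56 (2.84 to 4.47) to KPCA.A, KPCA.C and KPCA.B. Among tumors, KPCA.A and KPCA.B were not separated (0.905, 0.658 to 1.24). The share of macrophage-like cells with an Il18 UMI was 9.53% in ascites, against 6.29%, 15.9% and 13.5%; after thinning it was 4.21%, against 0.723%, 1.98% and 1.74%. Thinned T cell-like cells gave 0% in each tumor.

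Il18 in ascites was spread across the macrophage-like sub-clusters and was lower in sub-clusters 4.1 and 4.0 and in the dendritic-like one, at 28.3, 15.5 and 17.3 CPM. In the tumors it was spread over more classes: macrophage-like cells held 93.5% of Il18 UMIs in ascites, against 24.5%, 53.2% and 58.1% in KPCA.A, KPCA.C and KPCA.B. Fibroblast-like cells carried 7.24, 7.26 and 12.5 CPM, and tumor epithelial-like cells 2.90, 2.07 and 1.33 CPM. In KPCA.A, 24.5% of Il18 UMIs lay in unnamed cells, among which a cluster with the gastric genes Gkn1, Tff1 and Muc5ac (cluster 26) carried 151 CPM.

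**Figure D4:**
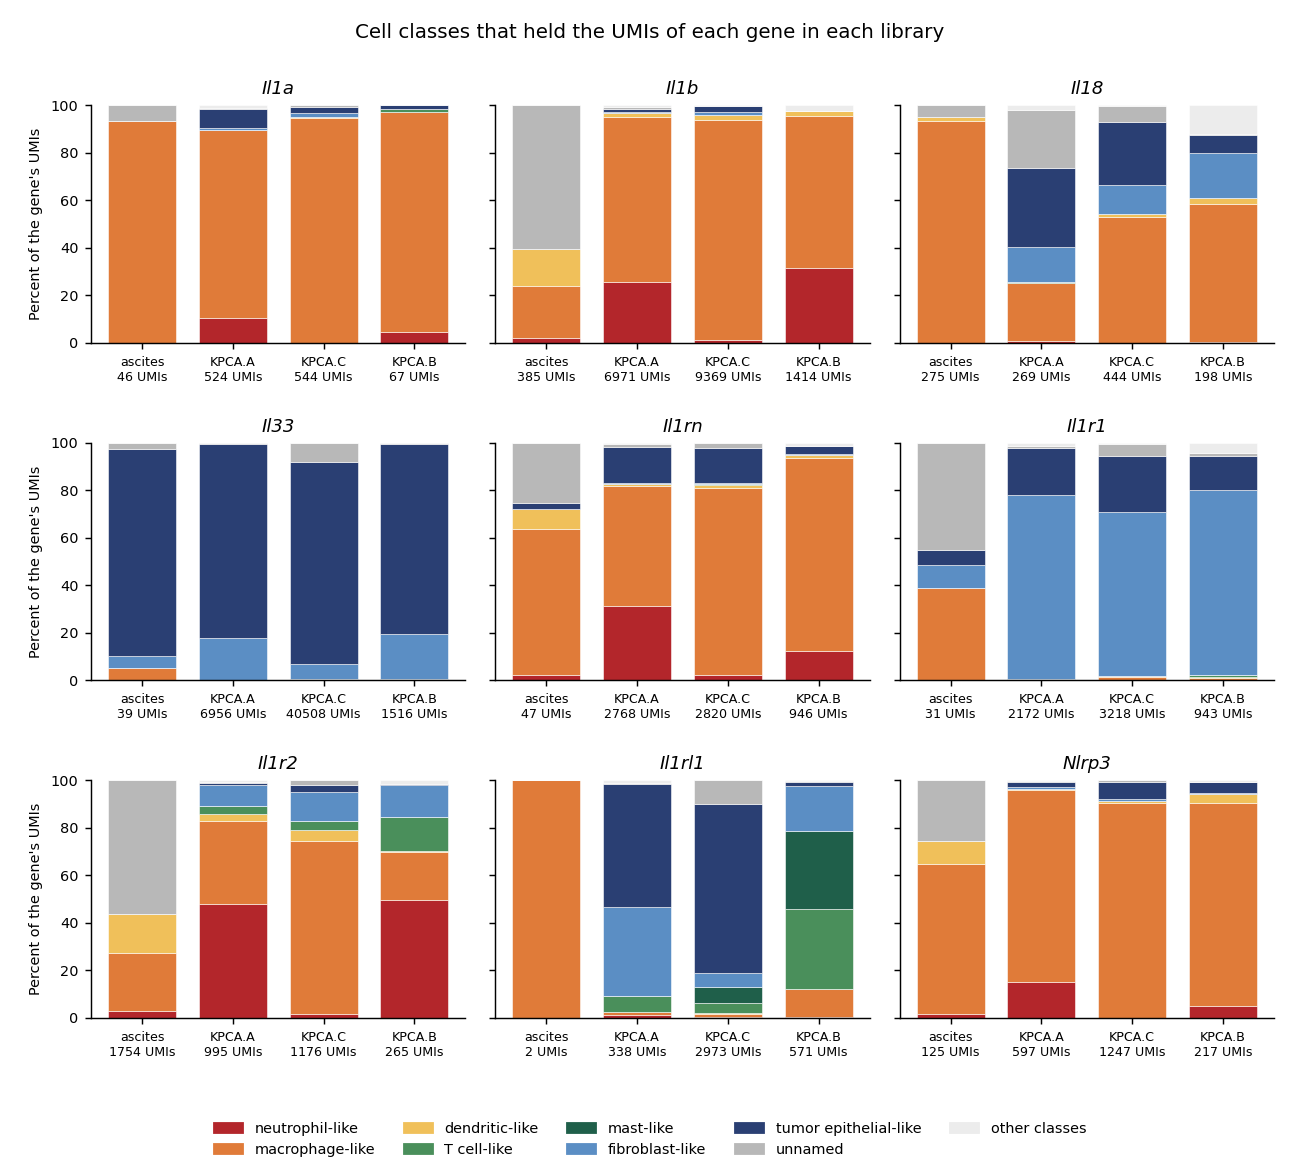
Share of each gene's UMIs, in percent, held by each cell class in ascites, KPCA.A, KPCA.C and KPCA.B. Il1b was held by macrophage-like and neutrophil-like cells in the tumors, Il33 by tumor epithelial-like cells for 80.2% to 84.8% in the tumors, and Il1r1 by fibroblast-like cells, mesothelial-type sub-clusters included, for 69.0% to 77.8%.

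Il33, the nuclear alarmin, was read in tumor epithelial-like and fibroblast-like cells and was highest in KPCA.C. Tumor epithelial-like cells carried 185 CPM (180.0 to 190) in KPCA.A, 607 CPM (600 to 613) in KPCA.C and 108 CPM (102 to 114) in KPCA.B. The A-to-C ratio was 0.305 (0.296 to 0.313), the A-to-B ratio 1.71 (1.61 to 1.82) and the C-to-B ratio 5.62 (5.30 to 5.95). Fibroblast-like cells carried 221 CPM (208 to 233) in KPCA.A, 339 CPM (326 to 352) in KPCA.C and 97.4 CPM (86.5 to 109) in KPCA.B. For these cells the A-to-B and C-to-B ratios were 2.26 and 3.48. Without the mesothelial-type sub-clusters they were 3.03 and 4.45. Relative to fibroblast-like cells, tumor epithelial-like cells held 0.838 times as much in KPCA.A (0.788 to 0.892), 1.79 times as much in KPCA.C (1.72 to 1.87) and 1.11 times as much in KPCA.B (0.975 to 1.27). Ascites held 39 Il33 UMIs in all, 34 of them in its 5 tumor epithelial-like cells.

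The share of tumor epithelial-like cells with an Il33 UMI was 61.4%, 78.1% and 47.8% in KPCA.A, KPCA.C and KPCA.B, at median depths of 36705, 47553 and 23435 UMIs, and 13.6%, 34.6% and 11.1% after thinning. The low-UMI cluster 5 held 53, 403 and 115 of these cells. In tumor clusters 2, 7 and 15 the full-depth share was 67.9%, 93.9% and 65.2%. In the Epcam-high cluster 17 it was 48.8% in KPCA.A and 55.7% in KPCA.B. KPCA.A and KPCA.B thus lay closer together outside the low-UMI cells. B cell-like cells, which should lack the gene, gave 0%, 8.70% and 0.174% at full depth (median 2225, 3902 and 3257 UMIs) and 0%, 1.45% and 0% after thinning. In KPCA.C low Il33 counts were seen in every large class, at 15.2 CPM in macrophage-like, 18.6 CPM in B cell-like and 14.4 CPM in T cell-like cells. The macrophage-like value of KPCA.C thus lay at the level of lymphoid cells of the same library, and is read as background. In KPCA.A and KPCA.B macrophage-like cells carried 3.21 and 0.535 CPM.

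Tumor cells were not uniform in Il33. In KPCA.A the Epcam-high cluster 17 carried 38.9 CPM (34.7 to 43.6), against 227 CPM (221 to 233) in cluster 2, which is low in Epcam; in KPCA.B the same clusters carried 109 CPM (97.5 to 122) and 103 CPM (95.9 to 110.3). Sub-clusters of cluster 2 in KPCA.A ran between 122 CPM, in the one with Tnc, Acta2 and Col3a1, and 330 CPM, in the one led by Hmga2. In KPCA.C clusters 7 and 15, nearly all of whose cells came from that line, carried 646 CPM (639 to 653), and sub-cluster 7.3, with Igfbp3, Inhba and Ncam1, reached 1156 CPM. Cluster 2, which had cells of all lines, held 227, 405 and 103 CPM in KPCA.A, KPCA.C and KPCA.B. The lines lay mostly in different sub-clusters of it, with 190 KPCA.B cells in sub-cluster 2.0 and 74 KPCA.C cells in 2.5, so this is no comparison of like cells. In sub-cluster 2.2, 135 KPCA.A and 13 KPCA.C cells carried 247 CPM (236 to 259) and 268 CPM (239 to 299), with overlapping intervals. Tumor cells of KPCA.C also carried Dcn, a fibroblast gene, at 157 CPM in clusters 2, 7 and 15, against 4.34 CPM in KPCA.A and 59.0 CPM in KPCA.B; an unnamed sub-cluster with Col3a1, Spp1 and Dcn (sub-cluster 7.1) carried 454 CPM Il33 and 8.22% of that library's Il33 UMIs.

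**Figure D5:**
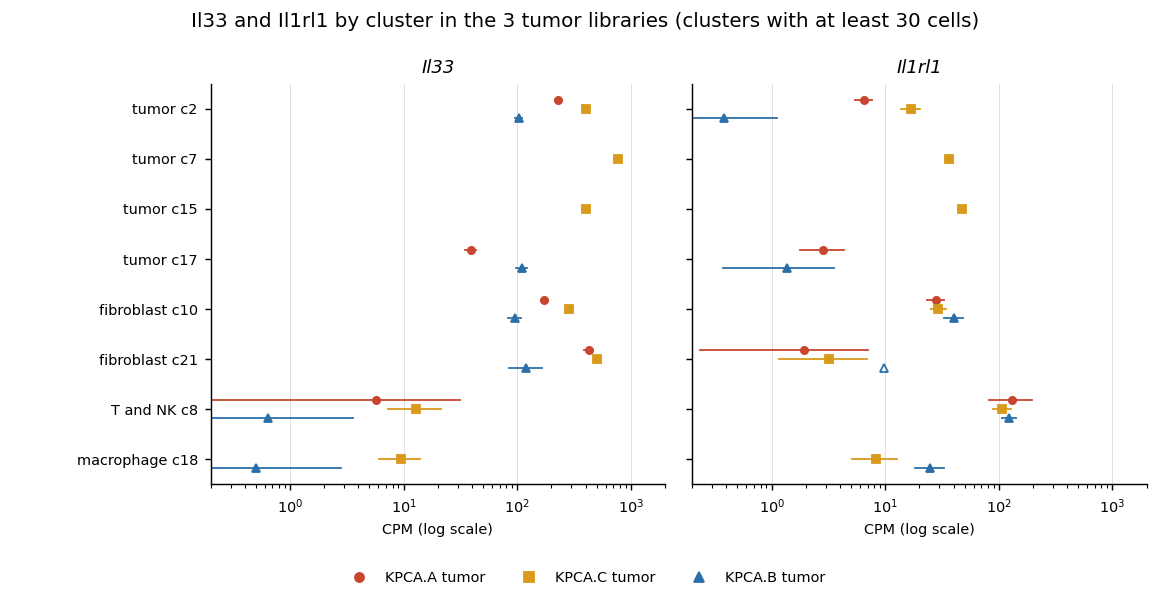
Il33 and Il1rl1, in CPM on a log axis, in tumor epithelial-like clusters 2, 7, 15 and 17, fibroblast-like clusters 10 and 21, lymphoid cluster 8 and macrophage-like cluster 18 for KPCA.A, KPCA.C and KPCA.B (at least 30 cells), with 95% counting intervals. Cluster 7 is plotted whole, with its unnamed sub-cluster 7.1 included. KPCA.C was highest for both genes in cluster 2, at 405 CPM Il33 and 16.8 CPM Il1rl1.

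Il1r1, the signalling receptor of IL-1α and IL-1β, was highest in fibroblast-like cells and, in the main setting, differed little between lines. Fibroblast-like cells carried 306 CPM (291 to 321) in KPCA.A, 293 CPM (281 to 305) in KPCA.C and 247 CPM (230 to 266) in KPCA.B. KPCA.A and KPCA.C had overlapping intervals, and KPCA.A was 1.24-fold (1.13 to 1.35) above KPCA.B. The C-to-B ratio of 1.18 (1.09 to 1.29) changed direction, to 0.746 and 0.741, under a looser cell filter and a finer clustering. Thinned to 1000 UMIs per cell, the A-to-B and C-to-B ratios were 1.80 and 1.85, without intervals. Fibroblast-like cells exceeded tumor epithelial-like cells by 21.9-fold (19.7 to 24.4) in KPCA.A, 21.8-fold (20.1 to 23.8) in KPCA.C and 21.1-fold (17.5 to 25.6) in KPCA.B. In the main setting that ratio was nearly the same in the 3 tumors, with tumor epithelial-like cells at 13.9, 13.4 and 11.7 CPM. Under the looser cell filter it was 13.1 in KPCA.C, and without the mesothelial-type sub-clusters it was 15.5 in KPCA.B. Fibroblast-like cells held 77.8% of the Il1r1 UMIs of KPCA.B, and 43.5% once the mesothelial-type sub-clusters were left out of the class.

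Endothelial-like cells came next, at 47.1 CPM (30.5 to 69.5) in KPCA.A and 57.8 CPM (38.4 to 83.5) in KPCA.B, with 31.5 CPM in 21 cells of KPCA.C. Macrophage-like cells carried 1.07 to 3.57 CPM over the 4 libraries. The classes with most Il1b were thus near 0 in Il1r1, and the class with most Il1r1 carried 6.87, 15.3 and 0.674 CPM of Il1b in KPCA.A, KPCA.C and KPCA.B. Within fibroblast-like cells Il1r1 ranged between 515 CPM in a KPCA.A sub-cluster with Enpp2, Wnt4 and Cxcl13 (sub-cluster 10.3) and 116 CPM in a KPCA.C sub-cluster with Col1a1 and Mgp. At 4 fibroblast-like cells, ascites allowed no level of its own.

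The receptor subunit Il1rap, which signalling through IL-1 and IL-33 receptors requires, was read in neutrophil-like cells at 259.9 CPM in KPCA.A and 302 CPM in KPCA.B. In fibroblast-like cells it stood at 29.1, 54.6 and 14.8 CPM in KPCA.A, KPCA.C and KPCA.B, and in tumor epithelial-like cells at 17.5, 35.8 and 4.26 CPM. Il1rap was highest in KPCA.C in both classes, unlike Il1r1.

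Il1r2, the decoy receptor, was highest in neutrophil-like cells and was the member for which ascites stood out. Neutrophil-like cells carried 4247 CPM (3172 to 5569) in the 17 ascites cells, against 1438 CPM (1312 to 1574) in KPCA.A, 887 CPM in 11 KPCA.C cells and 1425 CPM (1193 to 1690) in KPCA.B. KPCA.A and KPCA.B neutrophil-like cells did not differ beyond counting error. Dendritic-like cells carried 927 CPM (823 to 1040) in ascites, against 129 CPM (96.4 to 168) in KPCA.C, and 168 and 2.70 CPM in the few cells of KPCA.A and KPCA.B. The unnamed ascites sub-cluster 4.0 carried 1171 CPM (1099 to 1247), and unnamed cells held 56.1% of the Il1r2 UMIs of ascites. In the tumors the class with the largest share of these UMIs was the neutrophil-like one in KPCA.A (47.8%) and KPCA.B (49.8%) and the macrophage-like one in KPCA.C (72.8%).

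Macrophage-like cells carried Il1r2 at 72.5 CPM (65.8 to 79.8) in ascites, 58.9 CPM (52.9 to 65.4) in KPCA.A, 58.8 CPM (54.9 to 62.9) in KPCA.C and 5.67 CPM (4.25 to 7.42) in KPCA.B. Only KPCA.B stood apart among tumors, with both KPCA.A and KPCA.C 10.4-fold above it (7.76 to 14.1 and 7.85 to 14.0). After thinning to 1000 UMIs per cell those ratios were 39.7 and 30.8. They have no interval, and few KPCA.B UMIs remain at that depth, so their size is uncertain. Within cluster 9 the values were 70.5, 76.8 and 31.9 CPM, so the gap was narrower there. In ascites macrophage-like cells, sub-cluster 4.1 (Hmox1 and Cd163) carried 272 CPM and the large clusters 0 and 3 carried 61.4 and 30.0 CPM. T cell-like cells carried 227 CPM (157 to 317) in KPCA.A, 40.4 CPM in KPCA.C and 30.9 CPM in KPCA.B.

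Il1rl1, which encodes the IL-33 receptor ST2, was highest in mast-like cells and in a small part of the T cell-like class. Mast-like cells carried 3725 CPM in 3 cells of KPCA.C and 2003 CPM in 8 cells of KPCA.B, and none were found in ascites or KPCA.A. T cell-like cells carried 153 CPM (97.2 to 230.1) in KPCA.A, 120.1 CPM (99.99 to 143) in KPCA.C and 155 CPM (134 to 179) in KPCA.B, with a C-to-B ratio of 0.773 (0.612 to 0.973). The sub-cluster with Gata3, Cxcr6 and Il7r (sub-cluster 8.5) carried 845 CPM in 13 cells of KPCA.C and 773 CPM (651 to 911) in 33 cells of KPCA.B. The sub-cluster with the regulatory T cell genes Foxp3, Ikzf2 and Ctla4 (sub-cluster 8.4) carried 281 CPM in both. B cell-like cells had no Il1rl1 UMI in any tumor.

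Tumor epithelial-like cells of KPCA.C also carried Il1rl1. The level was 5.67 CPM (4.86 to 6.57) in KPCA.A, 37.3 CPM (35.7 to 38.9) in KPCA.C and 0.888 CPM (0.426 to 1.63) in KPCA.B, giving ratios of 0.152 (0.129 to 0.177) for A to C, 6.38 (3.39 to 13.5) for A to B and 42.0 (22.8 to 87.7) for C to B. The C-to-B ratio was 5.11 as a mean over cells, so its size depends on how deep cells are weighted. The order of lines was that of Il33 in the same cells, and in KPCA.C these cells held 71.0% of the library's Il1rl1 UMIs. Cells with a UMI made up 13.1%, 34.6% and 2.03%, and 0.389%, 2.92% and 0.309% after thinning. Among KPCA.C tumor sub-clusters, 15.2, with Spp1 and Tm4sf1, had 77.7 CPM and 7.3 had 25.1 CPM, so the sub-cluster with most Il33 was not the one with most Il1rl1.

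Fibroblast-like cells carried Il1rl1 at 23.0 CPM (19.2 to 27.3) in KPCA.A, 22.8 CPM (19.6 to 26.5) in KPCA.C and 36.1 CPM (29.5 to 43.6) in KPCA.B. Sub-cluster 10.2, which also had 3 mesothelial markers, carried 57.9 CPM in KPCA.B, where it held 60 of the 125 cells, and 94.1 CPM in 9 cells of KPCA.A; without the mesothelial-type sub-clusters the A-to-B ratio of 0.637 became 3.49. In KPCA.B macrophage-like cells carried 7.38 CPM and held 12.1% of Il1rl1 UMIs, with 24.8 CPM in the large peritoneal-type cluster 18. T cell-like and mast-like cells held 33.5% and 33.1% of the KPCA.B total. Ascites gave 2 Il1rl1 UMIs in all.

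Nlrp3, the inflammasome sensor, was highest in neutrophil-like cells, at 269 CPM (216 to 331) in KPCA.A and 119 CPM (59.3 to 213) in KPCA.B. Macrophage-like cells carried 13.5 CPM (10.7 to 16.8) in ascites, 81.7 CPM (74.6 to 89.3) in KPCA.A, 77.4 CPM (72.9 to 82.1) in KPCA.C and 19.8 CPM (17.05 to 22.9) in KPCA.B. KPCA.A and KPCA.C overlapped (1.06, 0.947 to 1.18), and each was about as far above KPCA.B, by 4.13-fold (3.48 to 4.92) and 3.91-fold (3.34 to 4.59). In cluster 9 the A-to-B ratio was 1.46 (1.08 to 1.99). Macrophage-like cells held 63.2%, 81.1%, 90.4% and 85.3% of Nlrp3 UMIs in ascites, KPCA.A, KPCA.C and KPCA.B. In the unnamed ascites cells Nlrp3 stood at 37.6 CPM.

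The partners of NLRP3 had other orders over the libraries. Pycard, the inflammasome adaptor, stood at 929.7 CPM in ascites macrophage-like cells, against 258, 444 and 459.9 CPM in KPCA.A, KPCA.C and KPCA.B. Casp1, the processing enzyme, stood at 17.2 CPM in ascites, against 25.5, 26.0 and 39.7 CPM, and Gsdmd, the pore-forming target of caspase-1, at 12.9 CPM in ascites, against 38.99, 38.1 and 51.6 CPM. Il18bp, which neutralises IL-18, was at 18.1 to 23.1 CPM in all 4 libraries. Il18r1, the IL-18 receptor, was read in T cell-like cells at 207, 182 and 194 CPM in KPCA.A, KPCA.C and KPCA.B, in NK cell-like cells of KPCA.B at 243 CPM, and in macrophage-like cells at 0 to 1.30 CPM.

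Counted together, with genes of at least 50 UMIs over both libraries and 5 CPM added to each level, KPCA.A and KPCA.C macrophage-like cells differed from KPCA.B in the same direction. In KPCA.A over KPCA.B, 5 of 7 measured members were at least 2-fold higher, namely Il1a, Il1b, Il1rn, Il1r2 and Nlrp3, and 1 was lower (Il1rl1), where 3.05% of all 10063 genes were higher and 2.71% lower; the members' median was 1.81 on the log2 scale, against -0.03 over all genes. In KPCA.C over KPCA.B, 5 of 9 were higher (Il1a, Il1b, Il1r2, Il33 and Nlrp3) and 0 lower, where 3.11% of genes were higher and 2.26% lower, with a median of 1.73, against -0.06. In KPCA.A over KPCA.C, 0 of 9 were higher and 1 was lower (Il33), where 0.644% and 0.942% of genes were. The Il33 counts in both of these comparisons rest on the KPCA.C macrophage-like level read above as background. These 2 comparisons with KPCA.B share the KPCA.B library.

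In ascites the whole transcriptome of macrophage-like cells was shifted, with a median over all genes of -0.61, -0.55 and -0.61 against KPCA.A, KPCA.C and KPCA.B on the log2 scale. Against KPCA.A, 1 of 6 measured members was at least 2-fold higher (Il18) and 4 were lower (Il1a, Il1b, Il1rn and Nlrp3), where 7.2% of genes were higher and 31.3% lower. Against KPCA.C, 1 of 8 was higher (Il18) and 5 were lower (Il1a, Il1b, Il1rn, Il33 and Nlrp3), where 5.27% and 25.7% of genes were. The Il33 call rests on the KPCA.C macrophage-like level read above as background. With 20 CPM added, 0 members were higher and 4 lower in that comparison. Against KPCA.B, 2 of 7 were higher (Il18 and Il1r2) and 3 lower (Il1b, Il1rn and Il1rl1), where 6.09% and 31.4% of genes were. The members' medians were -2.42, -1.82 and -0.43. Read against the shift of all genes, Il1b, at -5.41, -4.96 and -2.40, and Il1rn, at -4.59, -3.98 and -3.13, were still lower in ascites, and Il18, at 1.60, 1.20 and 1.49, was higher. For Il1b against KPCA.B this depends on which ascites cells are counted. Its ratio of 0.148 became 0.487 with the unnamed cells counted, which is nearer to the shift of all genes.

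In tumor epithelial-like cells the members past 2-fold were few. In KPCA.A over KPCA.C, 0 of 9 were higher and 2 lower (Il33 and Il1rl1), where 3.31% and 2.29% of genes were. In KPCA.A over KPCA.B, 1 of 6 was higher (Il1rn) and 0 lower, where 2.74% and 3.02% were, and in KPCA.C over KPCA.B 2 of 7 were higher (Il33 and Il1rl1) and 0 lower, where 4.76% and 6.59% were. In fibroblast-like cells, KPCA.A over KPCA.C had 0 of 6 in either direction, where 0.779% of genes were higher and 1.13% lower. KPCA.A over KPCA.B had 1 of 5 higher (Il33), where 2.98% of genes were higher and 2.23% lower. KPCA.C over KPCA.B had 2 of 6 higher (Il33 and Il1b), where 3.39% were higher and 1.69% lower. The Il1b call rests on 15.3 CPM in KPCA.C, where B cell-like cells carried 9.32 CPM, against 0.674 CPM in KPCA.B. Whether it is background was not tested. With 20 CPM added, 1 member was higher.

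A list of 86 other IL-1 pathway genes was read in the same way. In KPCA.A over KPCA.B macrophage-like cells, 12 of 18 measured genes known to respond to IL-1 were at least 2-fold higher and 1 lower, with a median log2 difference of 1.48; in KPCA.C over KPCA.B it was 9 of 19 higher and 1 lower, with a median of 0.91. Of all genes, 3.05% were higher and 2.71% lower for A over B, and 3.11% and 2.26% for C over B. With 20 CPM added in place of 5, the A-over-B count of these response genes was 8 higher and 1 lower. Ptgs2, the inducible prostaglandin synthase, stood at 126 and 94.6 CPM in KPCA.A and KPCA.C, against 6.74 CPM in KPCA.B. Cxcl2, a neutrophil chemokine, stood at 538 CPM in KPCA.A, and Nos2, which makes nitric oxide, at 26.2 and 54.1 CPM in KPCA.A and KPCA.C, against 64.7 CPM of Cxcl2 and 0.963 CPM of Nos2 in KPCA.B. Cxcl3, a related chemokine, stood at 54.3 CPM in KPCA.C, against 1.39 CPM in KPCA.B. Saa3, an acute-phase gene, went the other way, at 732 and 490.4 CPM, against 2672 CPM in KPCA.B. None of 21 inflammasome and processing genes other than Nlrp3 passed 2-fold in either comparison, and of 16 adaptors and kinases Irak2 alone did. Many of these response genes also respond to other stimuli, and no test of the list was made. Macrophage-like cells of the tumors carried Il1r1 at only 1.07 to 3.57 CPM. Fos, Egr1 and Hspa1a were also higher in them in KPCA.A and KPCA.C than in KPCA.B. Whether IL-1 raised the response genes was not tested. In KPCA.A over KPCA.C, Cxcl1 (10.8 against 2.34 CPM) and Lcn2 (6.92 against 0.755 CPM) were higher and Il6 (35.4 against 78.9 CPM) was lower.

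Against the tumors, ascites macrophage-like cells were lower in 25 of 58 measured pathway genes and higher in 3 for KPCA.A, lower in 22 of 60 and higher in 3 for KPCA.C, and lower in 15 of 58 and higher in 7 for KPCA.B. Of all genes, 31.3%, 25.7% and 31.4% were lower and 7.2%, 5.27% and 6.09% higher, so these counts lay mostly near the background and are no result about the list. With 20 CPM added, the counts of lower pathway genes were 14, 9 and 9. Lcn2 and Saa3, both secreted acute-phase proteins, were higher in ascites each time: Lcn2 at 342 CPM, against 0.755 to 6.92 CPM in the tumors, and Saa3 at 19222 CPM, against 490.4 to 2672 CPM. Ptgs2 stood at 1.02 CPM and Mmp13, a matrix protease, at 3.24 CPM in ascites, against 126 and 123 CPM in KPCA.A. Nfkbie, an inhibitor of NF-kappaB, stood at 0.341 CPM, against 47.4 CPM in KPCA.A and 31.0 CPM in KPCA.B. Nos2 stood at 0.1703 CPM, against 54.1 CPM in KPCA.C. Against KPCA.B, Cxcl3 was higher in ascites (33.2 against 1.39 CPM), and Mefv (1.87 against 29.1 CPM) and Icam1 (7.32 against 47.9 CPM) were lower.

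Among tumor epithelial-like cells few pathway genes passed 2-fold. In KPCA.C over KPCA.B, 9 of 66 genes were at least 2-fold higher and 5 lower, in KPCA.A over KPCA.B 6 of 65 and 4, and in KPCA.A over KPCA.C 4 of 68 and 1. The background was 4.76% higher and 6.59% lower for C over B, 2.74% and 3.02% for A over B, and 3.31% and 2.29% for A over C. The monocyte chemokines Ccl7 and Ccl2 stood at 97.1 and 157 CPM in KPCA.A and at 143 and 286 CPM in KPCA.C, against 8.17 and 33.5 CPM in KPCA.B. Areg, a growth factor, stood at 58.0 and 69.7 CPM, against 7.82 CPM in KPCA.B. Lcn2 was at 250.5 CPM in KPCA.A and 3.89 CPM in KPCA.C, against 819.7 CPM in KPCA.B, and the neutrophil chemokine Cxcl5 at 101 and 4.86 CPM, against 106 CPM. Icam1 was at 11.7 and 2.67 CPM, against 44.6 CPM in KPCA.B; Cxcl1 was at 0.326 CPM in KPCA.A, against 9.24 CPM in KPCA.B, and Cxcl2 at 20.8 CPM in KPCA.A, against 66.9 CPM in KPCA.C.

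In fibroblast-like cells, which carry the receptor, 4 of 54 pathway genes were higher and 0 lower in KPCA.A over KPCA.B, 4 of 53 and 2 in KPCA.C over KPCA.B, and 3 of 55 and 0 in KPCA.A over KPCA.C. Of all genes, 2.98% were higher and 2.23% lower for A over B, 3.39% and 1.69% for C over B, and 0.779% and 1.13% for A over C. The mesothelial-type sub-clusters 10.1 and 10.2 held 10 and 60 of the 125 fibroblast-like cells of KPCA.B. They held 36 and 9 of 238 in KPCA.A, and 34 and 6 of 172 in KPCA.C. The part of this make-up in the values below was not tested. Il6, a cytokine that fibroblasts make on exposure to IL-1, stood at 26.6 and 32.7 CPM in KPCA.A and KPCA.C, against 2.02 CPM in KPCA.B, and Ptgs2 at 41.6 and 23.5 CPM, against 2.02 CPM. Lif, a cytokine related to Il6, stood at 13.02 CPM in KPCA.A, against 2.36 CPM in KPCA.B. Cxcl5 went the other way in KPCA.C (17.8 against 125 CPM in KPCA.B), as did Ccl7 (87.4 against 219 CPM), and Cxcl5 was at 64.4 CPM in KPCA.A. Csf3, a neutrophil growth factor, and Cxcl1 stood at 9.05 and 49.4 CPM in KPCA.A, against 1.72 and 21.8 CPM in KPCA.C.

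Over 27 profiles of a class in a library, which share libraries and clusters, the genes most alike to each member by Pearson's r of log2 levels were, as a description, Gpr84 (0.943), Osm and Clec5a for Il1a, Siglece (0.954), Tarm1 and Lpcat2 for Il1b, Clec5a (0.953), Tarm1 and Gm34084 for Il1rn, and Tarm1 (0.974), Clec5a and Clec4n for Nlrp3. For the receptors and the other ligands they were Bgn (0.9498), Enpp2 and Fkbp14 for Il1r1, Rnf149 (0.877), Lilr4b and Tctex1d2 for Il1r2, Tnfsf11 (0.858), Ikzf2 and Neb for Il1rl1, Twist1 (0.954), Steap2 and Wnt5a for Il33, and Cd302 (0.868), Fcor and Ltc4s for Il18. Between members, Il1b was most alike to Nlrp3 (0.955) and Il1rn (0.947), while Il1b and Il1r1 gave -0.27 and Il33 and Il1rl1 gave 0.317.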

How the data were processed

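The deposited matrices are unnormalised UMI counts that the authors made with Cell Ranger, 1 row per gene and 1 column per barcode; the file headers name version 3.0.2 for ascites and 4.0.0 for the tumors, whereas the submitters' processing notes name 3.1.0 and build mm10. Per the labels' protocols, tumors were dissociated with collagenase and DNase and loaded on a 10x 3′ kit; dissociation and the kit can change stress genes and depth. Libraries were annotated with 31053 (ascites) or 32285 (tumors) genes, and the 30406 shared IDs were used. Total deposited counts were 7420674, 58591493, 95130645 and 40054369 UMIs for ascites, KPCA.A, KPCA.C and KPCA.B.

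Barcodes needed 300 genes and 500 UMIs or more, and a mitochondrial share of no more than 15%. For clustering, counts were not thinned but scaled to 10000 per cell and put on a log scale. Cells were clustered with scanpy 1.11.5 (2000 variable genes without the members and pathway genes, 30 principal components, 15 neighbours, Leiden resolution 1, sub-clusters at 0.5). Clusters were called X-like from at least 3 markers among 50 leading genes. Merging monocytes with macrophages, joining dendritic types and leaving unnamed those clusters with markers of another class were decided after seeing the data. Scrublet called 22 of 11253 cells (0.196%) as doublets, too few to have worked, so doublets stayed in; an alternative removed the highest scores. Counts were summed per class and library and given as CPM with exact 95% Poisson or binomial intervals (scipy 1.17.1), which cover counting error only; a count of 0 was given the limit of 3 counts. Folds between libraries needed 50 cells in each for a class and 30 for a cluster. The script was tested on simulated data with known folds. Each group has 1 library, so no p-value was computed. The members, the 86 pathway genes and the marker lists were chosen with earlier results of these data known. Named besides members are, per comparison, the 3 pathway genes past 2-fold in each direction with the largest change, Il1rap, Il18bp, Il18r1, Casp1, Pycard and Gsdmd, and the 3 most alike genes per member; stress genes and leading genes of clusters were named to describe cells. Alternatives were 2 other cell filters, 2 clustering resolutions, clustering with the members kept, each library clustered alone, doublet removal, means over cells, thinning, other added CPM values, and 3 chosen after seeing the data.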

Additional observations from a re-analysis of the deposited data

Results flagged for a closer look

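Barcodes that the cell filter left out were not used in any comparison, and signal was present in them above the limit that a count of 0 allows. Il1b stood at 151 CPM in the 197 barcodes left out of ascites (33 UMIs), 54.6 CPM in the 3055 of KPCA.A, 60.5 CPM in the 1012 of KPCA.C and 19.9 CPM in the 772 of KPCA.B; these barcodes held 7.89%, 9.21%, 2.89% and 2.62% of all Il1b UMIs of their library. Il33 stood at 58.7, 161 and 38.8 CPM in the barcodes left out of KPCA.A, KPCA.C and KPCA.B, and at 0 in those of ascites, which allows up to 13.7 CPM. Among the tumors, KPCA.B was lowest for both genes in these barcodes, as in the cells used. For Il33 KPCA.C was highest, and for Il1b the intervals of KPCA.A (50.7 to 58.8 CPM) and KPCA.C (53.6 to 68.0 CPM) overlapped. Which cells these barcodes came from was not tested.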

How the results depend on the processing

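No paired analysis was possible because each group has 1 library. Of 408 recomputed ratios of 34 results, 328 stayed within counting error, 76 moved and 4 reversed; of 220 percentages 156 stayed and 64 moved; of 144 counts of genes 115 stayed within 1.5 times and 29 moved. Reversed were Il1r1 in fibroblast-like cells, KPCA.C over KPCA.B (0.746 under the looser filter, 0.741 at resolution 2), Il1rn in tumor epithelial-like cells, KPCA.A over KPCA.B (0.839 thinned), and Il1rl1 in fibroblast-like cells, KPCA.A over KPCA.B (3.49 without mesothelial-type clusters). The causes were not tested. Il33 in tumor epithelial-like cells, KPCA.A over KPCA.C, was 0.360 under the stricter filter, 0.285 under the looser one, 0.284 without high doublet scores and 0.362 thinned; KPCA.C over KPCA.B was 4.89 as a mean over cells and 4.996 thinned. Il1b in macrophage-like cells, ascites over KPCA.B, was 0.196 at resolution 2, 0.486 with libraries clustered alone, 0.481 without high doublet scores, 0.487 with unnamed cells counted and 0.0903 thinned. KPCA.A over KPCA.B was 6.50 as a mean over cells and 5.56 thinned, and KPCA.C over KPCA.B 5.11 and 4.61. The percentage of Il1b in KPCA.C macrophage-like cells was 87.7 (stricter), 87.0 (looser), 86.9 (either resolution, or members kept), 89.0 (alone) and 88.4 (doublet scores); in KPCA.A neutrophil-like cells it was 23.6 (stricter) and 26.8 without low-UMI clusters. The percentage of Il33 in KPCA.A tumor epithelial-like cells was 80.6 (stricter) and 83.0 without mesothelial-type clusters. Il1r1, fibroblast-like over tumor epithelial-like in KPCA.A, was 18.9 as a mean over cells and 31.6 thinned. With 20 CPM added, 8 pathway genes in place of 13 were 2-fold higher in KPCA.A over KPCA.B macrophage-like cells. Depth limits ascites most, at the lowest UMIs per cell.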
